A study of Rattus norvegicus with 18 samples.

Results

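The regions described here are the 1000-bp tiles of the rat genome whose CpG methylation differed most among 6 control testis libraries. Reads of both strands of each CpG were summed, CpGs on chromosomes 1 to 20 with at least 10 reads in all 12 methylation libraries were kept, and genotype-like CpGs were dropped. Genotype-like CpGs are those at which each of the 12 libraries was at most 15 points away from 0, 50 or 100% methylation, with no more than 9 of them at any 1 of these levels. Of 50196 tiles with 5 or more CpGs left, 2208 (4.4%) had a range of 30 percentage points or more between the lowest and the highest control library, and these are called the variable tiles. The methylation of a tile is the percent of its pooled CpG reads that were methylated. The control values therefore chose these tiles and are given as description. The sleep-restricted libraries entered the coverage and genotype-like filters but took no part in the choice by range.

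The study compared testes of Wistar rats aged 8 weeks after chronic sleep restriction (CSR) with those of a control group, without any transgene or drug named in the labels. Reduced representation bisulfite sequencing (RRBS) was done on 6 CSR and 6 control libraries, and poly(A) RNA was sequenced in 3 CSR and 3 control libraries. The labels do not say that each library is a separate animal, how sleep was restricted, or that RNA and methylation libraries share animals, so p-values here reflect the variation among samples that may include technical repeats. The letter that stands for CSR in the submitters' RNA codes appears in the file codes of the control methylation libraries; groups were taken from the labels, on which every direction between CSR and control depends.

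In mammals a methyl group on the cytosine of a CpG is copied to the new DNA strand at each division, so that most CpGs are either methylated in nearly all cells of a tissue or free of methylation in nearly all. An intermediate value in bulk tissue can arise where cell types, alleles or single molecules differ. The testis holds germ cells at successive stages of meiosis and spermiogenesis together with Sertoli, Leydig and peritubular cells, and in bulk DNA a change in the proportions of these cells and a change within the cells cannot be told apart. RRBS reads the fragments left by the enzyme MspI, which cuts at CCGG whether or not the inner CpG is methylated. Every molecule of a fragment starts at the same cut, so PCR copies of 1 molecule cannot be recognised without molecular identifiers, and the labels describe none.

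The 12 libraries held 46257452 to 68940379 reads at CpG cytosines, with a median of 29 to 43 reads per library at the CpGs kept. CSR libraries 2 and 3 lay nearest the same level at 98.0% of the 968 genotype-like CpGs, and no other of the 66 pairs did so at more than 51.2%. These 2 libraries may therefore come from 1 animal, which the labels do not say, and both were kept. The share of variable tiles with a CSR range of 30 points or more is also given without one of them. The comparison of the groups is also given with their reads summed. Other values over the 6 CSR libraries, such as SDs, level classes and correlations, count them as 2 libraries. In the RNA libraries the summed level of 7 spermatid markers, among them the transition protein genes Tnp1 and Tnp2, was 16094 to 18877 FPKM (fragments per kilobase, scaled for the depth of the library) in CSR and 9297 to 17310 in control. The markers were not equally steady over the 6 libraries. Tnp1 ran from 3903 to 7730 FPKM, but Prm1 from 0.0934 to 3029 and Prm2 from 0.407 to 360. Leydig cell genes, 4 of 5 markers listed, summed to 66.4 to 117 FPKM over the 6 libraries, and Sertoli cell genes, 3 of 6 listed, to 15.7 to 19.1. Blood and immune cell genes, 3 of 4 listed, summed to 3.85 to 29.6 FPKM. Among them Hba-a1 ran from 3.02 to 28.9, Cd68 from 0 to 0.834 and Hbb from 0 to 2.53, with Hbb at 0 in 5 of 6 libraries. None of 3 epididymis markers was listed. The part of cell composition in the methylation values was not tested.

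Among the variable tiles the control range had a median of 35.4 points and a maximum of 92.4. It was 40 points or more in 632 tiles, 50 or more in 160, 70 or more in 18 and 80 or more in 5. Nothing separated the variable tiles from the rest at the threshold, since a further 4546 tiles had a control range of 20 to under 30 points. Just inside lay chr9:37197001-37198000 (rn6, as all coordinates here; gene context was not analysed), with control values of 64.0 to 94.0%, and chr8:124840001-124841000, with 13.2 to 43.2%. Just outside lay chr1:277091001-277092000, with 67.6 to 97.6%, and chr6:51497001-51498000, with 9.64 to 39.6%. In the CSR libraries, 56.3% of the 16467 single CpGs in these tiles had a range of 30 points or more of their own, against 11.8% of the 386474 CpGs in other tiles; in the controls, which chose the tiles, it was 82.4%.

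The widest control range was at chr16:63681001-63682000, where 5 CpGs span 146 bp. Control libraries 1 to 6 read 57.2, 28.5, 15.6, 92.4, 31.9 and 0%, the last from 213 reads, a count of 0 that allows up to 1.41%. The 95% Wilson interval of the highest value, from 303 reads, was 88.9 to 94.9%. Intervals and limits here cover counting error only, because copies of 1 molecule count as separate reads. A read that spans several CpGs also counts at each of them, so the pooled reads are CpG observations and the intervals are narrower than the counting error of whole reads. The control libraries thus covered nearly the whole scale at every CpG of this tile, whose single-CpG control ranges were 90.9 to 93.2 points. CSR libraries 1 to 6 read 22.7, 24.5, 19.8, 26.0, 32.8 and 56.6%, a range of 36.7 points that lay inside that of the controls.

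The tile next in order, chr10:53859001-53860000, was as wide in the libraries that did not choose it. Its 6 CpGs read 0, 87.2, 38.3, 33.3, 36.8 and 21.4% in control libraries 1 to 6. In CSR libraries 1 to 6 they read 67.7, 4.35, 38.6, 87.8, 7.32 and 0%, a range of 87.8 points and the largest of any variable tile in CSR. Both groups therefore held libraries near 0 and libraries above 80% at this tile, from 99 to 287 reads per library.

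The third widest control range was at chr18:28531001-28532000, at 16.6 to 100% with a median of 67.8% in control and 34.1 to 97.0% with a median of 53.2% in CSR. At chr5:172027001-172028000, which has 9 CpGs and at least 286 reads per library, control values ran from 15.4 to 97.4% and CSR values from 26.9 to 95%. There CSR libraries 1, 2 and 3 lay at 95, 94.0 and 89.2%, CSR 4 and 5 at 28.3 and 26.9%, and CSR 6 between them at 63.7%. At chr3:119050001-119051000 the control range was 16.6 to 92.2% and the CSR range 25.9 to 80.8%. In these 3 tiles each group spread over more than 50 points and the groups overlapped along most of the scale.

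In the remaining 3 of the 8 widest tiles the CSR libraries covered less of the scale than the controls. At chr2:245060001-245061000 the controls ran from 9.68 to 90.1% and the CSR libraries from 44.6 to 78.5%. At chr11:72393001-72394000 control 6 read 96.0% and the other controls 18.7 to 44.0%, against 0 to 36% in CSR. At chr2:5591001-5592000, with 13 CpGs in 71 bp, control 6 read 74.0% and the other controls 0 to 23.2%, against 0.593 to 38.7% in CSR. The plot of the 8 widest tiles shows each library as a point.

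**Figure D1:**
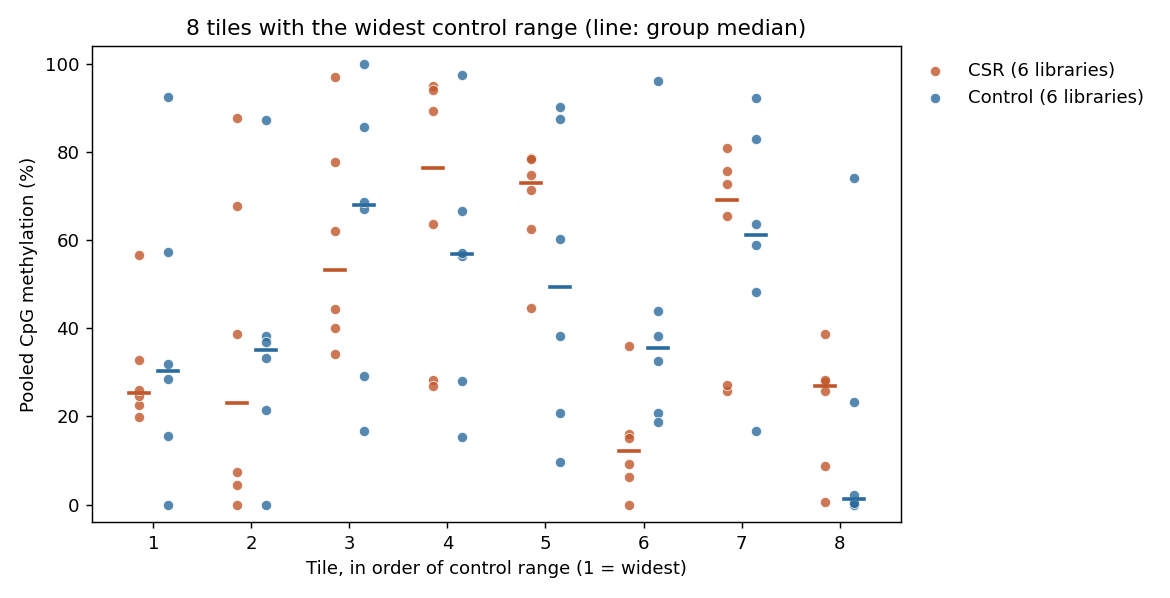
Pooled CpG methylation (percent, vertical axis) of the 8 tiles with the widest control range, in order from chr16:63681001-63682000 (1) to chr2:5591001-5592000 (8), with 1 point per library, CSR in orange and control in blue, and a line at each group median. The control points chose the tiles; the CSR points span 87.8 points at tile 2 and 36.7 points at tile 1.

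In the CSR libraries, whose range was not used to choose them, the variable tiles were again the wider ones. Of the 2208 variable tiles, 889 (40.3%) had a CSR range of 30 points or more, where 4.89% of all 50196 tiles and 3.26% of the 47988 other tiles did. The exact 95% binomial interval of the 40.3%, 38.2 to 42.3%, takes tiles as independent and does not cover variation among libraries or animals. These 889 tiles are 36.2% of the 2455 tiles with such a range in CSR. A CSR range of 50 points or more was found in 140 variable tiles (6.34%), against 0.514% of all tiles. The median CSR range was 27.1 points in the variable tiles, with quartiles of 19.4 and 35.7, and 7.56 points in the other tiles. A CSR range under 10 points was found in 98 variable tiles (4.44%) and in 63.1% of the other tiles.

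**Figure D2:**
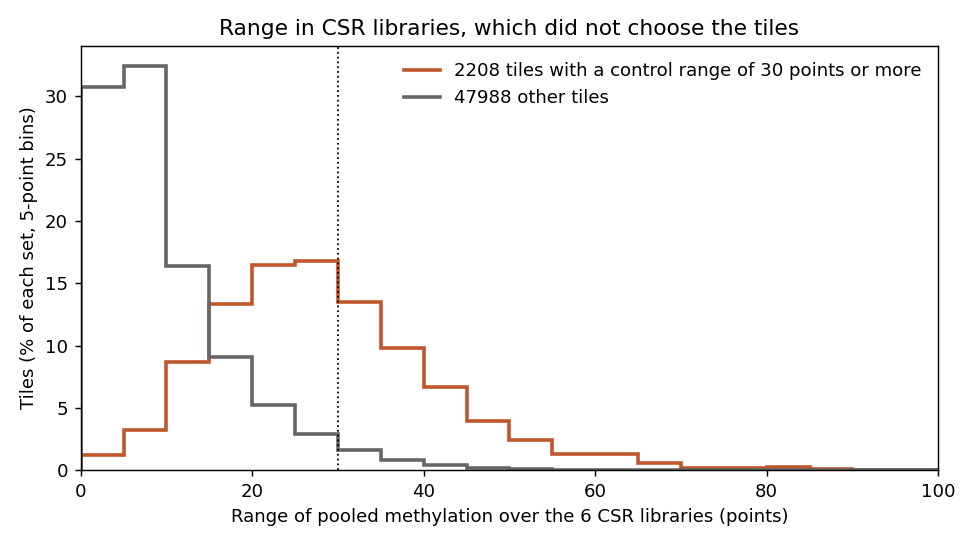
Distribution of the range of pooled methylation over the 6 CSR libraries (points, horizontal axis) as percent of tiles in 5-point bins, for the 2208 variable tiles (orange) and the 47988 other tiles (grey), with a dotted line at 30 points. The variable tiles have a median of 27.1 points and the other tiles one of 7.56, and 40.3% against 3.26% lie at or beyond the line.

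For the size of the spread in CSR, the SD over the 6 CSR libraries had a median of 10.2 points in the variable tiles. Binomial sampling of the pooled reads, each counted as independent, would give a median SD of 2.82 points, and 7.42 points if 1 read covered all CpGs of its tile; PCR copies would raise both by an amount not known here. In the other tiles the observed median SD was 2.88 points, and the 2 sampling values were 1.39 and 3.70. The level of the true counting error is not known, and in the other tiles the observed SD lay below the second sampling value. The sampling values therefore do not separate differences between samples from sampling of molecules.

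The 6 variable tiles with the widest CSR range were led by chr10:53859001-53860000, described above. At chr10:15171001-15172000 CSR 4 read 0% and the other CSR libraries 37.3 to 85.0%, while the controls read 52.2 to 96.7%. At chr6:131837001-131838000, with 7 CpGs in 29 bp, CSR 2 read 91.8% and the other CSR libraries 7.66 to 42.9%, against 4.76 to 50% in control. At chr9:21063001-21064000 CSR 5 read 0%, CSR 6 46.0% and the other 4 CSR libraries 70 to 83.6%, against 60 to 90.8% in control. In each of these 3 tiles 1 CSR library stood at 0% or above 90%, away from most of its group.

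The other members of that set were spread through their whole range. At chr16:10943001-10944000 CSR libraries 1 to 6 read 11.8, 62.0, 64.4, 92.3, 8.72 and 54.8%, and the controls 49.8 to 93.3%. At chr18:64116001-64117000 they read 69.2, 14.6, 40.2, 24.0, 97.0 and 21.7%, and control libraries 1 to 6 read 95.5, 31.3, 51.8, 33.2, 96.8 and 64.1%. This last tile has 7 CpGs and at least 191 reads per library, and its CSR range was 85.2 points on each strand taken alone, with CSR 5 at 95.9 and 96.8% on the forward and reverse strand.

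The variable tiles lay at intermediate methylation. Their mean over the 12 libraries had a median of 39.3%, against 88.4% for the other tiles. Measured in the CSR libraries alone, the percent of tiles that were variable was 0.568 at a mean level under 10%, 28.2 at 40 to 60%, 10.6 at 60 to 80% and 0.265 at 90% or more. A percentage near 0 or 100 leaves little room for a range of 30 points in either direction, so part of this follows from the scale. Within each class of CSR level from 10 to 90% the variable tiles nevertheless more often had a wide CSR range than the other tiles. At 40 to 60% the shares were 53.2 and 22.6%, at 10 to 20% they were 30.3 and 7.95%, and at 80 to 90% they were 25.3 and 2.99%. At 90% or more, 0 of 60 variable tiles had such a range.

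**Figure D3:**
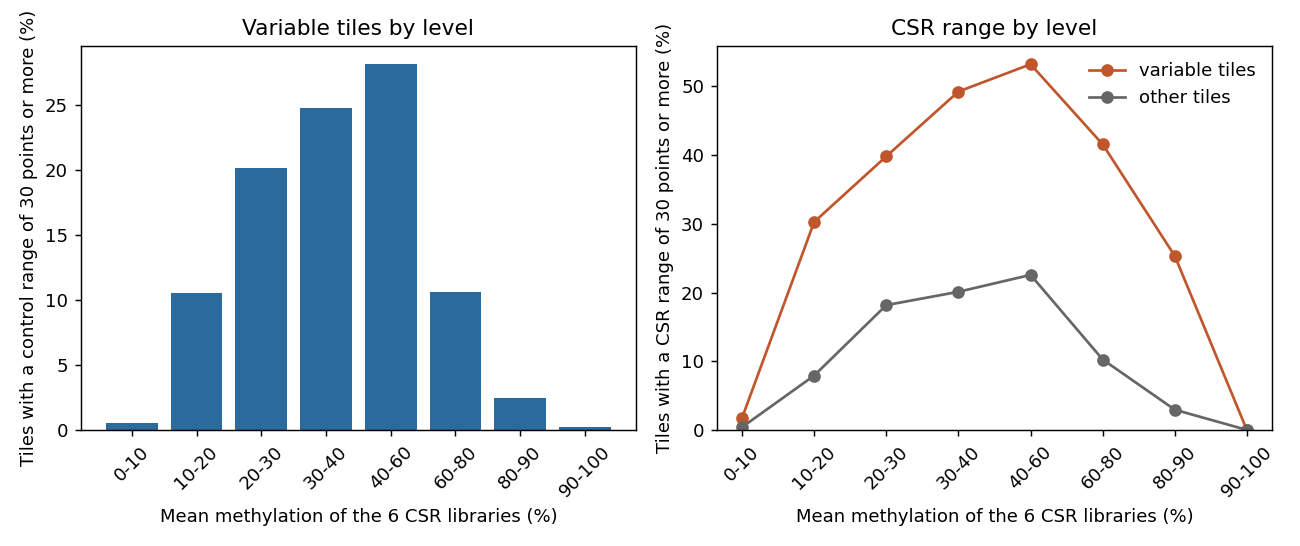
Left, the percent of tiles with a control range of 30 points or more in classes of the mean methylation of the 6 CSR libraries (percent). Right, the percent of variable tiles (orange) and of other tiles (grey) with a CSR range of 30 points or more in the same classes; both peak at 40 to 60%, at 53.2 and 22.6%.

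Coverage was lower in the variable tiles. The mean coverage per CpG had a median of 36.6 reads, against 40.4 in the other tiles, and the lowest pooled coverage of a library had medians of 127 and 158 reads. In 4 equal classes of all tiles from the lowest to the highest coverage, 6.08, 4.84, 4.22 and 2.45% were variable, and among tiles with a CSR mean of 20 to under 80% the shares were 26.2, 21.2, 18.1 and 11.6%. Of the variable tiles in these classes, 44.7, 40.5, 39.1 and 30.8% had a wide CSR range. Variable tiles were therefore found in every class and were fewest among the best covered. Over all tiles the share with a wide CSR range was 4.89%, a background matched neither for coverage nor for methylation level.

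The number of CpGs left had a median of 7 per tile in both sets. Of tiles with 5 CpGs 4.75% were variable, of those with 20 to 49 CpGs 1.74% were, and of the 9 tiles with 50 or more 1 was; over all tiles the median level was 91.3% at 5 CpGs and 2.00% at 20 to 49. The variable tile with the most CpGs, chr1:11911001-11912000 with 66, read 2.25 to 32.3% in control and 4.42 to 15.6% in CSR, from 4504 to 24898 reads per library. Dropped genotype-like CpGs were not concentrated in the variable tiles, of which 9 (0.408%) held one, against 359 (0.748%) of the other tiles.

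Every chromosome tested held variable tiles, from 3.00% of tiles on chromosome 10 to 6.18% on chromosome 20. Of 2583 windows of 1 Mb that held a tile, 1216 held a variable one. The most in any window was 14, of 86 tiles, at 6 to 7 Mb of chromosome 17. Variable tiles had another variable tile within 10 kb in 181 cases (8.2%), and 3.84% of the other tiles, not matched for level, had one that near.

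Where 2 tiles of the set adjoined, a variable tile was followed by a variable tile more often than tiles of all levels were. Of 198 variable tiles whose next 1000 bp also formed a tile, 44 (22.2%) were followed by a variable tile, against 3.85% of all 5220 such tiles. That background was not matched for methylation level. At a CSR mean of 20 to 30, 30 to 40, 40 to 60 and 60 to 80%, 20.2, 24.8, 28.2 and 10.6% of tiles were variable. The 22.2% lay inside the range of these shares, and whether variable tiles adjoin more often than others of their level was not tested. Of the 8802 tiles with a CSR mean of 20 to under 80%, with or without a neighbour, 1673 were variable. Over the 6 CSR libraries the methylation of the 44 pairs had a median correlation of 0.495, and 13 pairs (29.5%) were above 0.8. The median was 0.0742 over 4785 pairs of other tiles, with 7.69% above 0.8. Over the 232 such pairs in which both tiles had a CSR mean of 20 to under 80% it was 0.263, with 10.8% above 0.8. These correlations are descriptions over 6 points each, and neighbouring tiles share libraries and can share reads at their border.

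A pair of adjoining tiles, chosen after its values were seen, shows libraries in nearly the same order in both tiles. In chr7:33872001-33873000 CSR libraries 1 to 6 read 46.4, 19.8, 30.9, 54.3, 37.3 and 58.5%. In chr7:33873001-33874000 they read 41.2, 20.8, 22, 49, 37.1 and 51.3%. Control libraries 1 to 6 read 60.8, 53.3, 15.8, 19.4, 12.0 and 28.9% in the first and 54.5, 55.0, 15.4, 20.0, 9.63 and 30.5% in the second. At chr14:48612001-48613000 and chr14:48613001-48614000, also picked by their values, CSR 3 was the lowest CSR library in both, at 11.2 and 10.2%, and CSR 5 the highest, at 57.1 and 52.4%.

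Inside a tile, the CSR spread was shared by neighbouring CpGs far more than by the 2 DNA strands. When the CpGs of a tile were numbered along it and the odd ones set against the even ones, the CSR libraries deviated from their mean nearly alike in both. The covariance of odd and even CpGs was 86.3% of their variance in the variable tiles and 60.9% in the other tiles, and the median correlation over the 6 libraries was 0.925 and 0.544. Odd and even CpGs share the same reads. Reads of the forward and the reverse strand come from different molecules after bisulfite treatment, since the strands are then no longer complementary. In the 869 variable tiles with at least 3 CpGs that had 5 reads on each strand, and 20 reads per strand and tile, in every library, the covariance between strands was 17.0% of the variance, with a median correlation of 0.178. In the same 869 tiles the alternate CpGs shared 86.9%.

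Between strands the other tiles shared less, 7.56% of the variance over 23546 tiles with a median correlation of 0.0197. Among tiles with a CSR mean of 20 to under 80% the shared part was 16.8% in the variable tiles and 9.45% in the others. It rose with the control range, from 12.7% at 30 to under 40 points (633 tiles) to 19.3% at 40 to under 50 (183 tiles) and 39.6% at 50 points or more (53 tiles). In the controls, whose pooled values chose the tiles, 38.9% was shared. Most of the CSR variance of the variable tiles was thus not shared by the strands. A CSR range of 30 points or more on each strand was found in 423 of the 869 tiles (48.7%), against 6.0% of all 24415 tiles so covered. That background was not matched for level. At a CSR mean of 20 to under 80% the shares were 54.2% of 699 variable tiles and 22.5% of 3521 other tiles. The number of original molecules behind the reads of a strand is not known here, and its part in this was not tested.

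**Figure D4:**
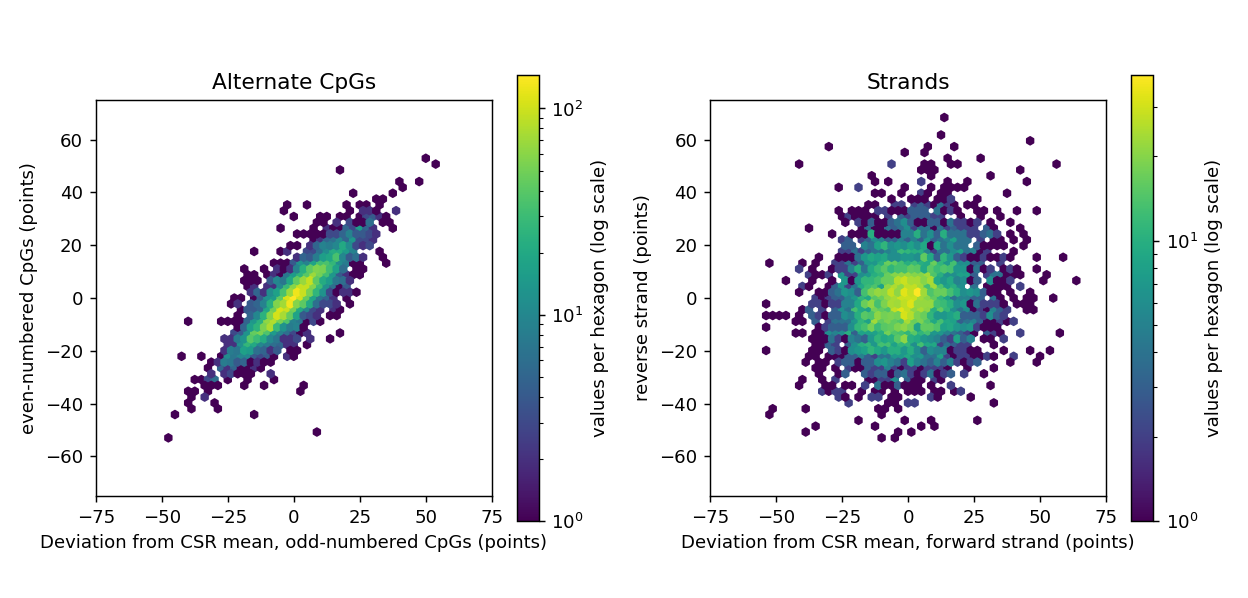
Deviation of each CSR library from the CSR mean (points) in 869 variable tiles read on both strands, with 6 values per tile and colour for the number of values (log scale). Left, odd- against even-numbered CpGs of a tile, where the points follow the diagonal and 86.9% of the variance is shared; right, forward against reverse strand, where they form a round cloud and 17.0% is shared.

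A correlation of the strands above 0.8 over the 6 CSR libraries was found in 66 of the 869 variable tiles (7.59%) and in 5.74% of the other tiles, and at a CSR mean of 20 to under 80% in 6.87 and 5.43%, so the variable tiles were near the background. In 60 variable tiles the CSR range was 50 points or more on each strand, and 15 of these were among the 66. Neither number was counted in the other tiles, so neither is read as a trait of the variable tiles. The following were picked from the 15 for their like values on both strands, and show what such tiles look like. At chr18:61422001-61423000, with at least 208 reads per library, the forward strand read 70.6, 27.5, 44.4, 44.9, 84.4 and 33.7% in CSR libraries 1 to 6 and the reverse strand 74.0, 30.7, 59.7, 49.2, 92.5 and 42.9%. At chr18:50282001-50283000 CSR 6 read 5.36 and 12.3% on the 2 strands and CSR 2 87.6 and 81.6%. At chr6:45552001-45553000 CSR 1 read 97.4 and 97.9%, while CSR 2, 3 and 6 read 36.5 to 43.8% on either strand.

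In other wide tiles the strands of a library lay far apart. At chr16:63681001-63682000 CSR 3 read 46.7% on the forward and 11.5% on the reverse strand. At chr18:28531001-28532000 control 4 read 86.0% forward and 24.0% reverse, and CSR 3 88.9 and 43.1%. The libraries named differed by more than 30 points between the strands of these 2 tiles.

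A small set of variable tiles owed its range to 1 library. In 52 tiles a single library of the 12 read 30% or more while the other 11 read under 10%, a pattern looked for after the values were seen. The high library was CSR 4 in 19 and control 6 in 14 of these, and each of the other libraries in 0 to 3. Of the 52, the 23 with a high control library are variable tiles by the rule. At chr6:6427001-6428000 control 6 read 72.7% of 132 CpG observations over 11 CpGs (Wilson 64.6 to 79.6%) and the other 11 libraries 0 to 3.42%. At chr9:46206001-46207000 control 6 read 49.4% of 170 CpG observations over 17 CpGs, all 6 CSR libraries read 0%, and the other controls 0 to 0.816%. A read counts at each CpG it spans, so the reads behind these observations can be far fewer.

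In both tiles the high value was the same at most CpGs, at 83.3% in the first and 60% in the second. At chr6:6427001-6428000, 10 of 11 CpGs had a control range of 30 points or more, and at chr9:46206001-46207000 14 of 17 did. Neither tile was read on both strands. Where both were, they did not always match: at chr1:78439001-78440000 control 6 read 60% on the forward and 0% on the reverse strand, at chr7:77162001-77163000 18.2 and 45%. At the adjoining tiles chr2:197877001-197878000 and chr2:197878001-197879000 it was control 3 that read 34.0 and 41.1%, with the other 11 libraries at 0 to 7.23%, and in the first of them both strands had it, at 32.1 and 31.0%.

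The reverse pattern, 1 library at 70% or less and the other 11 above 90%, was found in 10 tiles, 3 of them variable. At chr18:53231001-53232000 control 4 read 57.1% and the others 94.2 to 99.4%. At chr10:88088001-88089000 control 5 read 64.8% and the others 92.0 to 98.7%. At chr9:66148001-66149000, which has the highest mean of all variable tiles (95.7%), control 3 read 68.8% and the others 92.7 to 100%. The tile with the lowest mean, 2.94%, chr5:76039001-76040000, owed its range to control 6, at 30.8% against 0 to 1.81% in the other libraries. With chr9:46206001-46207000 the narrowest CSR range was at chr8:44899001-44900000, where all CSR libraries read 0% and control 1 read 31.4%.

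The most deeply read variable tiles were narrower in CSR than most variable tiles, and deep tiles outside the set were narrow too. Of 17 tiles with more than 1000 reads per CpG on average, 4 were variable, with CSR ranges of 3.55 to 18.4 points. In the other 13 the CSR range was 0.981 to 13.7 points. At chr14:46645001-46646000, with 6437 reads per CpG, CSR values were 44.2 to 47.7%, while control libraries 3, 5 and 6 read 19.1, 33.2 and 19.4% and controls 1, 2 and 4 40.7, 49.6 and 44.9%. At chr14:46655001-46656000 and chr14:46644001-46645000 the CSR libraries read 36.2 to 44.4% and 43.2 to 50.5%, and control libraries 3, 5 and 6 were again the lowest controls. At chr1:11909001-11910000 these 3 libraries read 10.1, 21.5 and 22.4%, against 38.1 to 45.8% in the other controls and 25.2 to 43.6% in CSR.

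In these 4 tiles the SD was 1.45 to 6.44 points over the CSR libraries and 13.0 to 15.4 over the controls. The strands of chr14:46645001-46646000 gave the same picture, with control 3 at 18.7 and 19.5%. Such coverage is far above the median of 36.6 reads per CpG in variable tiles, and its part in the values was not tested. In 2 deep tiles outside the set, chr2:49364001-49365000 and chr2:49365001-49366000, controls 3, 5 and 6 were instead the highest 3 controls, at 79.3 to 82.8% and 78.3 to 86.5%.

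Between CSR and control no variable tile was called. A quasi-binomial model of the reads, its dispersion moderated by limma, called 0 of 50181 tiles (0.0%) and so 0 of the 2208 variable tiles, where a call needed an adjusted p under 0.05 and 5 points or more between the pooled groups. An unadjusted p under 0.05 was found in 134 variable tiles (6.07%) and in 6.07% of all tiles, so in this setting the variable tiles were at the background. The match depended on the setting. Without moderation the shares were 2.31 and 5.82%, and without controls 3 and 5 they were 10.8 and 6.26%. By limma on log ratios 0 tiles were called, and 109 variable tiles (4.94%) and 5.2% of all tiles had an unadjusted p under 0.05. With CSR libraries 2 and 3 summed as 1 library the model again called 0 tiles, with a smallest adjusted p of 0.766. The wide control spread that chose the tiles enters the error of the test at these tiles, so a given difference is harder to call there.

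The difference of CSR minus control means had a median of -1.47 points over the variable tiles and 0.12 over all tiles, and the CSR mean was the higher one in 914 variable tiles (41.4%) and in 52.9% of all tiles. The control values chose the tiles, so this direction is not independent of the choice. For instance, 1 control library alone was high in 23 variable tiles and alone low in 3. The negative median depended on single libraries: taken over pooled reads it was -1.32 points, and -0.178 without control 4, -0.619 without CSR 6, -0.666 without control 6 and -2.54 without controls 3 and 5. Per library, the mean over the variable tiles was 43.2 ± 1.92% in CSR (40.7 to 45.4%) and 44.5 ± 3.21% in control (41.3 to 49.4%; SD, n = 6 each), and these groups overlapped. Over the other tiles it was 64.5 ± 0.404 and 64.4 ± 0.497%. Among the controls, control 4 had the highest mean over the variable tiles and control 5 the lowest. Control 4 was also the highest control in 565 variable tiles and the lowest in 158, while control 1 was the lowest in 530 and the highest in 245.

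The groups did not overlap in 1 variable tile with CSR higher (background 0.124% of all tiles) and in 1 with CSR lower (background 0.108%). The first, chr20:20941001-20942000, had the smallest p of the variable tiles with CSR higher. Its 5 CpGs read 93.2, 95.6, 93.9, 79.1, 99.2 and 96.2% in CSR libraries 1 to 6 and 68.2, 72.0, 73.2, 37.0, 41.6 and 38.1% in control libraries 1 to 6. The pooled difference was 38.5 points and did not pass in the moderated quasi-binomial model, with an adjusted p of 0.452. Every control lay below every CSR library, with controls 4, 5 and 6 lowest.

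On the same chromosome, chr20:20775001-20776000 read 94.8 to 98.7% in CSR and 56.3 to 97.2% in control, where control 2 alone lay within the CSR range and the others at 56.3 to 77.0%. The pooled difference was 18.7 points, with an adjusted p of 0.536 in that model, and without control 2 it was the 1 tile called (0.00199% of 50170), at a difference of 24.6 points and an adjusted p of 0.0220. Both tiles lie in the window from 20 to 22 Mb of chromosome 20, in which 14 of 118 tiles were variable. The third smallest p with CSR higher was at chr10:101372001-101373000, with 71.9 to 86.0% in CSR and 48.1 to 80.1% in control and an adjusted p of 0.79 in the same model.

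With CSR lower, chr5:149872001-149873000 had the smallest p. It read 9.13 to 33.1% in CSR and 17.1 to 53.2% in control, where 5 of the 6 controls lay above every CSR library. At chr17:5300001-5301000 CSR read 39.0 to 56.1% and control 43.0 to 82.7%. At chr3:150483001-150484000, the variable tile with CSR lower and no overlap, CSR read 0.694 to 3.51% and control 3.83 to 36.9%, with controls 3 and 5 at 36.9 and 29.9% and the other controls at 3.83 to 8.86%. The pooled differences were -24.6, -18.5 and -14.0 points, and none passed in the quasi-binomial model moderated by limma, with an adjusted p of 0.79 each.

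Libraries compared in pairs differed by a few points at most tiles and by far more at the variable ones. The median absolute difference of a pair was 2.46 to 2.96 points over the other tiles. Over the variable tiles it was 8.66 to 10.7 points within CSR and 9.84 to 13.5 between the groups. The 11.6 to 16.4 points within control reflect the choice of the tiles. CSR libraries 2 and 3, which shared most genotype-like levels, had the smallest difference of the 15 pairs within CSR at 8.66 points, followed by CSR 5 and 6 at 9.44. Pairs that hold a control library are not ranked with them, since the control values chose the tiles. Over the other tiles CSR 2 and 3 differed by 2.57 points, which lies inside the range of all pairs there. Without CSR 2, 33.3% of the variable tiles had a CSR range of 30 points or more over the 5 libraries left, and 33.4% without CSR 3.

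**Figure D5:**
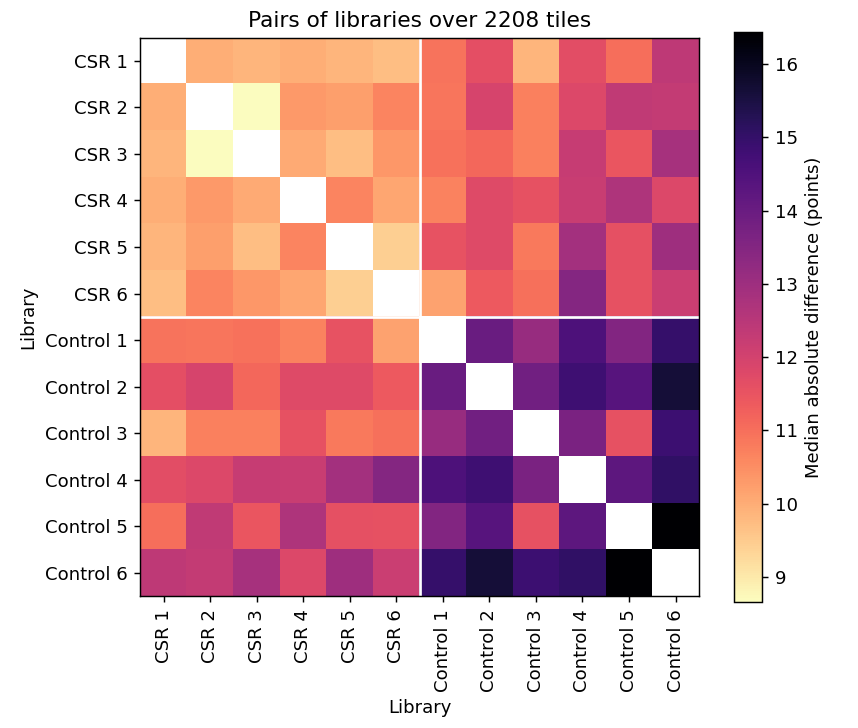
Median absolute difference of pooled methylation (points, colour) over the 2208 variable tiles for each of the 66 pairs of libraries, with white lines between CSR and control libraries. The lightest cell is CSR 2 with CSR 3, at 8.66 points; pairs within control, whose values chose the tiles, reach 16.4 points.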

How the data were processed

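CpG methylation of rat testis DNA was measured by RRBS in 6 CSR and 6 control libraries, and RNA in 3 of each. Per the labels' protocols, DNA was cut with MspI, size-selected, treated with bisulfite and amplified; Trim Galore, Bismark, SAMtools and the rn6 build are named without versions in the submitters' processing notes. The tables the authors deposited give, per the file headers, the coverage of each CpG cytosine as a read count and the percent of these reads that were C or T. The lowest coverage in them is 5 reads. Multiplying coverage by percent returned whole numbers of reads. FPKM values were deposited by the authors and served only to check the tissue; depth of RNA is unknown.

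Groups came from the labels. Strands were summed, and in control libraries 3, 4 and 6 a position given more than once (1 in each) was summed too. Of 643813 CpGs covered by 10 or more reads in every library, 968 genotype-like ones were dropped; 642845 were left, in 156063 tiles, of which 50196 had 5 or more. Tiles were compared between groups with a quasi-binomial logistic model with group as its only term, its dispersion moderated by squeezeVar of limma 3.58.1 in R 4.3.3 and kept at 1 or above, with a two-sided F test and Benjamini-Hochberg adjustment over all tiles; 15 tiles without variation could not be fitted. The other statistics were computed with Python 3.11.15, numpy 2.4.6, pandas 2.3.3 and scipy 1.17.1, and the model was tested on simulated data. Named tiles are the 8 with the widest control range, the 6 with the widest CSR range, the 3 with the smallest p in each direction, 2 on either side of the threshold, those with the most CpGs, the highest and the lowest mean, and the 2 with the narrowest CSR range; all others named were picked after their values were seen. The variable tiles, cell markers and tests were chosen with earlier results of these data known. Alternatives were another coverage minimum, CpG number, threshold, bin start, weighting, treatment of genotype-like CpGs, limma on log2 ratios of reads (with 1 added to each count), no moderation, the replicate number as a block, single strands and libraries left out. Sequences and gene context of the tiles are not reported here.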

Additional observations from a re-analysis of the deposited data

Results flagged for a closer look

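Among 106 groups of 6 libraries examined, 23 held a library far from the other 5 by Dixon's criterion, where chance alone gives about 5.3; many of the tiles were named because 1 control library stood alone, so these finds are not independent of the choice. For depth, CSR 6 had 68940379 reads at CpG cytosines, against 46257452 to 54712419 in the other CSR libraries, and control 2 had 49647718, against 59342162 to 64654061 in the other controls.

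Control 6 was the far library in 7 tiles. It read 96% at chr11:72393001-72394000, 74.0% at chr2:5591001-5592000, 30.8% at chr5:76039001-76040000, 49.4% at chr9:46206001-46207000, 72.7% at chr6:6427001-6428000, 33.3% at chr1:78439001-78440000 and 32.6% at chr7:77162001-77163000, above all other controls each time. Control 3 read 41.1% at chr2:197878001-197879000 and 34.0% at chr2:197877001-197878000, and 68.8% at chr9:66148001-66149000, where the other controls were above 92.7%. Control 1 read 31.4% at chr8:44899001-44900000 and the other controls 0 to 5.71%. Control 5 was low at chr9:37197001-37198000 (64.0%) and chr10:88088001-88089000 (64.8%), and control 4 at chr18:53231001-53232000 (57.1%). These control values took part in choosing the tiles.

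In the CSR libraries, which took no part in the choice by range, the far values were 56.6% in CSR 6 at chr16:63681001-63682000 (the others 19.8 to 32.8%), 79.1% in CSR 4 at chr20:20941001-20942000 (the others 93.2 to 99.2%) and 71.9% in CSR 5 at chr10:101372001-101373000 (the others 82.6 to 86.0%). Far values near 0 were 3.51% in CSR 2 at chr3:150483001-150484000, 1.81% in CSR 1 at chr5:76039001-76040000, 2.39% in CSR 4 at chr6:6427001-6428000 and 6.64% in CSR 1 at chr1:78439001-78440000.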

How the results depend on the processing

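The number of variable tiles followed the definition: 657 and 1201 with coverage minimums of 20 and 15 reads, 4600 and 373 with at least 3 and 10 CpGs, 6754 and 632 at thresholds of 20 and 40 points, 1365 without control libraries 3 and 5, and 1647 to 1850 without any single control library. Fewer CpGs or libraries enter most of these by construction. Other settings moved it less, from 2062 to 2245. The share of variable tiles with a CSR range of 30 points or more was 37.9% at a minimum of 20 reads, 34.3% with 10 CpGs, 53.8 and 56.1% on the forward and reverse strand alone (an alternative added after the data were seen), 36.2% with the roles of the groups exchanged and 32.3 to 35.3% without any single CSR library. CSR libraries 2 and 3 differed by 7.90 points with 10 CpGs, 9.17 with unweighted CpGs and 10.7 and 11.1 on single strands, and remained the closest of the 15 pairs within CSR in every setting run for them; the cause of these changes was not tested.

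The count of called tiles, and of called variable tiles, was 0 in every setting run but 2. With the replicate block it was 1, and over the fits without any single library it was 0 to 1, with 1 without control 2; both times the tile was chr20:20775001-20776000. With the block its adjusted p was 0.0410 by the quasi-binomial model, and over all settings 0.0220 to 0.840. Under the block chr9:46206001-46207000 had an adjusted p of 0.0134 by that model but a pooled difference of -3.41 points, under the 5 required. Libraries with the same number did not deviate together (correlations of -0.00881 to 0.0143 over tiles, and 0 of 12 libraries closest to their own number). The check cannot exclude pairing. Even CSR 2 and 3, alike at most genotype-like CpGs, differed by 2.57 points outside the variable tiles, inside the range of all pairs. Over all settings the adjusted p of chr20:20941001-20942000 lay between 0.117 and 0.840.

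Depth limits single tiles: at 127 pooled reads, the median lowest library of a variable tile, counting error alone spans several points, and unrecognised PCR copies widen it by an unknown amount.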
